A study of Homo sapiens with 6 samples.

Results

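The RNAs described here carry LINC names, the symbols given to long intergenic non-protein-coding RNA genes that had no better name when they were catalogued. They were chosen by symbol and level, as the rows of the deposited count table whose symbol is LINC followed by 5 digits and whose mean over the 6 libraries was at least 0.5 CPM (the count divided by its library's total, in the usual CPM scaling). Of 55882 rows, 614 had such a symbol and 131 of these reached the minimum. The level that chose them is a mean over both groups of cells, and 108 of the 131 reached 0.5 CPM in both groups, 8 in p53 KO cells only and 15 in p53 WT cells only. An RNA of the last 2 kinds entered through the group in which it was higher, so its direction was partly set by the choice. Among RNAs that passed the test below, LINC00221, LINC00704, LINC00475, LINC00858, LINC00639 and LINC00520 entered through p53 WT cells only. LINC00478, LINC01133 and LINC00473 entered through p53 KO cells only. Their fold changes and p-values below carry this limit.

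Polyadenylated RNA was sequenced from DIvA cells, which derive from U2OS, a human osteosarcoma line. They carry AsiSI, a DNA-cutting enzyme joined to a hormone-binding domain, so that 4-hydroxytamoxifen (4-OHT) sends it into the nucleus, where it makes breaks. There were 3 libraries of cells with p53 knocked out (p53 KO) and 3 of cells with intact p53 (p53 WT), and all 6 came from cells kept for 5 h in 300 nM 4-OHT. Both groups thus had AsiSI activated, and untreated cells were not analysed here. The labels do not say how many knockout clones there were or whether replicates were separate cultures, so the p-values measure only the spread between these samples, which may be technical, and p53 loss and any other difference between the 2 cell populations cannot be told apart.

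Long intergenic RNAs are transcribed by RNA polymerase II and often spliced and polyadenylated like mRNAs, but most hold no long reading frame. Many act, where an action is known, as scaffolds or decoys for proteins, as hosts of microRNAs, or through the act of their own transcription next to a coding gene, and some rows first given a LINC name are now known to encode small proteins. The transcription factor p53 is activated when DNA breaks, and it binds a site made of a pair of 10-base half-sites to switch on genes of cell-cycle arrest, repair and death, among them several long noncoding RNAs. PURPL, named LINC01021 in the table, is one of these and has been reported to hold p53 levels down, while MANCR, named LINC00704, was described as a mitotically associated RNA of aggressive breast cancer.

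The promoters of 3 RNAs that differed strongly between the groups are shown because 2 of them hold a match to p53's half-site and the third holds none. Each is the stretch from 250 bases before to 50 bases after the RefSeq start in build GRCh38.p14, in the direction of the gene, and capitals mark the p53 match. PURPL (chr5:27472042-27472341, plus strand) has 2 half-sites joined without a gap, 127 to 108 bases before its start. MANCR (chr10:4678021-4678320, minus strand) has 1 half-site, 107 to 98 bases before its start, and LINC01133 (chr1:159960974-159961273, plus strand) has none in this window.
PURPL: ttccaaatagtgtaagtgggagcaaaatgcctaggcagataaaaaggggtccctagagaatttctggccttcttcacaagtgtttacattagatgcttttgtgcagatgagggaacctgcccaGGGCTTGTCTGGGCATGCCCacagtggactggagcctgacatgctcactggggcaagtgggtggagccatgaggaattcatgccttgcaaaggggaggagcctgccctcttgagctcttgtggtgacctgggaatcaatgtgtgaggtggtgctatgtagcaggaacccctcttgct
MANCR: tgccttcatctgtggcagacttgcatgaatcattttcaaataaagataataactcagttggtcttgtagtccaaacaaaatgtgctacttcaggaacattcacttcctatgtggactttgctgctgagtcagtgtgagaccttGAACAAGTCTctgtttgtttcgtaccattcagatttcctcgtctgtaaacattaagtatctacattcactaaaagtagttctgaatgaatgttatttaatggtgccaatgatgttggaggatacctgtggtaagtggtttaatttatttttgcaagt
LINC01133: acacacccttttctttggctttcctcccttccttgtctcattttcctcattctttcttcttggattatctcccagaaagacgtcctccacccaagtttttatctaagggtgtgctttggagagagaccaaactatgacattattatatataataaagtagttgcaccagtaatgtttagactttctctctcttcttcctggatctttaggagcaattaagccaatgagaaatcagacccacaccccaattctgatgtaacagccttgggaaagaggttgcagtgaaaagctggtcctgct
A half-site match stands in 6.63% of 35116 RefSeq promoters of this length, searched on both strands, and in 7 of the 93 RNAs described here that have a promoter in the table. A full site, meaning 2 half-sites 0 to 13 bases apart, stands in 10 of the 35116 promoters, 0.0285%, and PURPL's was the only one among the 93. Of the other 5 RNAs with a half-site, LINC01060 and LINC00839 were lower in p53 KO cells, LINC00478 was higher, and LINC01119 (log2 fold change -0.91, adjusted p = 0.0782) and LINC00263 (0.29, adjusted p = 0.457) did not pass the test. Among all 93 RNAs with a promoter 23 were lower and 8 higher, and among the 7 with a half-site 4 were lower and 1 higher. Whether a half-site goes with a direction was not tested, and the 3 promoters shown were picked by their sites. The letters TATAAA stood in 11.5% of all promoters and in 13.8% of the 109 promoters of these RNAs. The AP-1 letters TGANTCA stood in 7.71% of all promoters and in 12.8% of these. A match of letters is a description and does not show that a factor binds there.

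Library totals were 20393909 to 72621732 counts in p53 KO cells and 24347609 to 79767519 counts in p53 WT cells, so that 3 counts, the most that a count of 0 allows, came to between 0.0376 and 0.147 CPM. CDKN1A, the p53-induced cell-cycle inhibitor, had 50.04, 42.8 and 45.5 CPM in p53 KO libraries, against 564, 516 and 532 CPM in p53 WT libraries. The summed level of 6 mesenchymal markers was 3851 to 4063 CPM in p53 KO libraries and 6700 to 7149 CPM in p53 WT libraries, with COL1A2 the lowest of them at a mean of 0.402 CPM. The 6 did not move as one: VIM (log2 fold change -1.04), FN1 (-1.84), SPARC (-0.45) and RUNX2 (-0.69) were lower in p53 KO cells by the test named below, COL1A1 was higher (0.43, adjusted p = 0.00248) and COL1A2 did not pass. That of 4 epithelial markers was 12.4 to 19.8 CPM in p53 KO libraries and 7.19 to 10.8 CPM in p53 WT libraries. None of the 4 passed by itself (adjusted p between 0.0740 for CLDN4 and 0.610 for ESRP1), and CDH1 and ESRP1 overlapped between the groups. The sum of 3 neuronal markers was 19.7 to 25.3 CPM in p53 KO libraries and 26.2 to 31.0 CPM in p53 WT libraries, without overlap. Only MAP2 of these was lower (log2 fold change -1.32, adjusted p = 0.00113). SYP (0.20, adjusted p = 0.453) and RBFOX3 (0.32, adjusted p = 0.753) did not pass, with fitted values in the other direction. Markers of leukocytes (3 genes, 1.15 to 2.22 CPM) and endothelium (2 genes, 1.27 to 3.29 CPM) were low in every library, and no marker was at 0 in all libraries. The part of these marker differences in the results below was not tested.

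All 131 RNAs passed the filter on low counts, and 44 of them (33.6%) differed between p53 KO and p53 WT cells, 14 higher and 30 lower in p53 KO cells. The test was edgeR's quasi-likelihood F-test with Benjamini-Hochberg adjustment over 22352 genes and a threshold of 0.05, and it also gave all adjusted p-values and log2 fold changes (p53 KO over p53 WT) below. Among all genes tested 26.5% were called, 12.1% higher and 14.4% lower. Among the 19040 with a mean of at least 0.5 CPM, 30.4% were called, 13.8% higher and 16.5% lower. The share of calls was near this background and the share of lower calls, 22.9%, stood above it. This background is not matched on level: at 5 CPM or more 56.6% of these RNAs were called, against 37.5% of all genes. Of 539 RefSeq lncRNA genes of at least 0.5 CPM without a LINC name 20.8% were called, and of 13636 RefSeq protein-coding genes 35.4%. These shares are given as descriptions, without a test of their difference. Without p53 WT replicate 2 the number of higher calls was 8 in place of 14 and that of lower calls 25, and calls over all genes numbered 4160 in place of 5924. As in any bulk measurement, fewer cells holding an RNA and less of it per cell cannot be told apart.

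**Figure D1:**
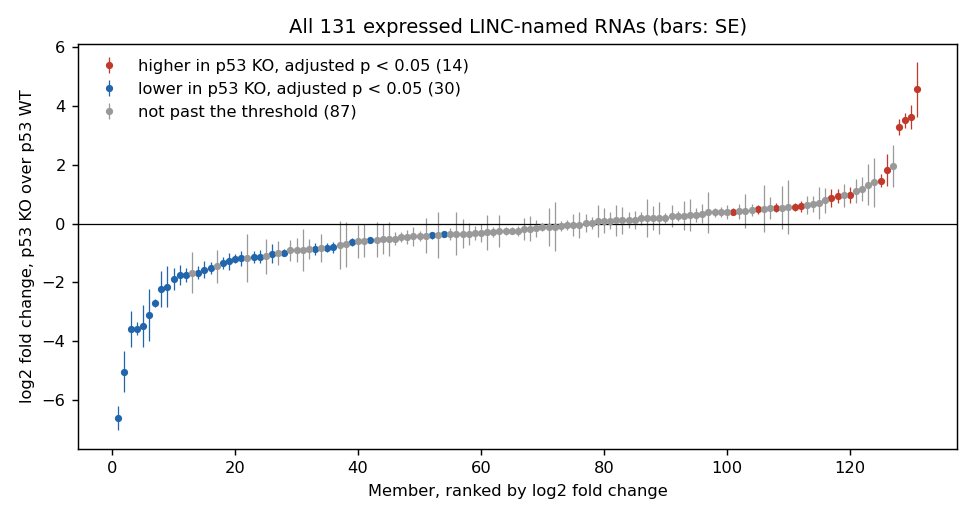
All 131 LINC-named RNAs in order of their log2 fold change, p53 KO over p53 WT (vertical axis; bars are SE), coloured by whether they passed an adjusted p of 0.05. The values ran between -6.61 and 4.56, with 30 RNAs called lower at the left, 14 called higher toward the right and 87 that did not pass.

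The median log2 fold change was -0.25 over the 131 RNAs and 0.0024 over all genes of at least 0.5 CPM. Summed over the 131, the level was 1248, 1268 and 1120 CPM in p53 KO libraries, against 1517, 1546 and 1557 CPM in p53 WT libraries, without overlap. Changes of at least 2-fold made up 22 of the 30 decreases and 6 of the 14 increases. These include all 6 called decreases and 3 called increases that entered through 1 group only. The same share over all genes was not computed, so these counts are not read as particular to these RNAs. For 68 RNAs (51.9%) the 3 values of a group all lay on one side of those of the other. Among genes of at least 0.5 CPM this share was 44.6%. Of the 131 RNAs p53 KO lay below in 43 and above in 25, against 22.4% below and 22.2% above among those genes. Whether an RNA passed went with its level: 3 of 31 were called at 0.5 to 1 CPM (8.82% of all genes at that level), 11 of 47 at 1 to 5 CPM (19.5% of all genes) and 30 of 53 at 5 CPM or more (37.5% of all genes). The median SE was 0.69, 0.39 and 0.19 on the log2 scale over these 3 levels. Of the 53 RNAs of at least 5 CPM, 21 were lower and 9 higher. Among all 12697 genes tested at that level, 2656 (20.9%) were lower and 2105 (16.6%) higher. The share of lower RNAs thus stood above that of all genes and the share of higher RNAs near it, without a test of the difference.

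**Figure D2:**
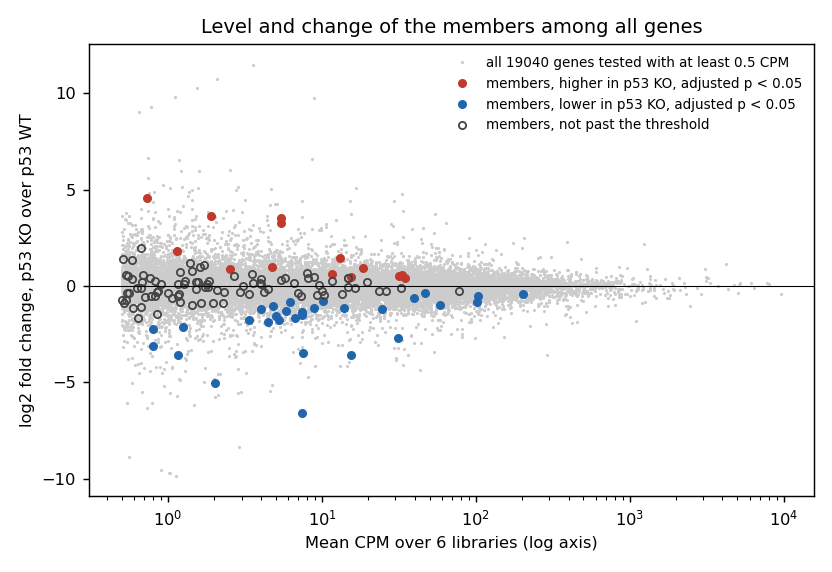
Log2 fold change, p53 KO over p53 WT, against the mean CPM over 6 libraries (log axis) for 19040 genes tested (grey dots) and the 131 LINC-named RNAs (circles; filled where called). The LINC-named RNAs had a median mean level of 3.34 CPM and a highest one of 202 CPM, and those called at 5 CPM or more are mostly below 0.

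PURPL, MANCR and LINC00475 were the 3 of the 131 that the authors' deposited table marks as intersecting a p53 cistrome (genes near mapped p53 binding). That mark stands on 124 genes, each of them lower in p53 KO cells by at least 1 on the log2 scale in the authors' deposited table, so it was placed only among decreases and is no independent sign of the direction. PURPL had 1.82, 3.12 and 2.40 CPM in p53 KO libraries, against 26.0, 26.9 and 32.2 CPM in p53 WT libraries. Its groups were far apart and replicates close, and the log2 fold change was -3.57 (SE 0.21, adjusted p = 4.89e-08). MANCR had 0.0275, 0.325 and 0 CPM in p53 KO libraries, against 3.25, 5.49 and 2.96 CPM in p53 WT libraries. It was thus near the counting floor in p53 KO cells, with 15 counts in all against 704, a level 36.3 times higher in p53 WT cells (95% exact interval 21.9 to 65.2, counting error only). The fitted log2 fold change of MANCR was -5.03 (SE 0.71, adjusted p = 1.30e-04). Its size depended on p53 KO replicate 2, which held 13 of the 15 counts: the value was -7.42 without that library and -4.31 without p53 KO replicate 1, both past the threshold. LINC00475 had 0.0826, 0.175 and 0.343 CPM in p53 KO libraries, against 2.44, 1.296 and 2.67 CPM in p53 WT libraries, and its log2 fold change was -3.60 (SE 0.61, adjusted p = 5.70e-04). The authors' deposited table gives these 3 log2 fold changes of 3.56 for LINC01021, 5.02 for LINC00704 and 3.51 for LINC00475 in the direction p53 WT over p53 KO.

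The largest decrease was that of LINC00221, which reached the minimum through p53 WT cells only and for which no role is given here. It had 0.0964, 0.325 and 0 CPM in p53 KO libraries, against 15.9, 14.2 and 14.1 CPM in p53 WT libraries. Its 20 counts in p53 KO cells against 2577 in p53 WT cells made a level 99.7 times higher in p53 WT cells (95% exact interval 64.4 to 163, counting error only), and the fitted log2 fold change was -6.61 (SE 0.42, adjusted p = 1.08e-07). Here too p53 KO replicate 2 held 13 of the 20 counts, and the value was -7.64 without it. With the local median of its neighbourhood (-0.95, defined below) taken off it was -5.67, and all of these values passed. LINC00973 had 9.57, 8.39 and 7.36 CPM in p53 KO libraries, against 56.0, 56.9 and 49.3 CPM in p53 WT libraries. Its log2 fold change was -2.69 with the smallest SE among the 12 largest decreases, 0.14 (adjusted p = 1.19e-08).

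LINC00862 varied within the p53 KO group, at 0.248, 2.95 and 0.588 CPM, and less within the p53 WT group, at 13.5, 12.7 and 15.1 CPM. The groups did not overlap and its log2 fold change was -3.48 (SE 0.71, adjusted p = 0.00777). That value became -5.31 without p53 KO replicate 2 and -2.87 without p53 KO replicate 1, and the call was lost without p53 KO replicate 3 (-3.25, adjusted p = 0.132) and with no filter on low counts (adjusted p = 0.117). LINC00858 had 0, 0.300 and 0.245 CPM in p53 KO libraries, against 1.504, 1.24 and 1.48 CPM in p53 WT libraries. It rested on 17 counts against 240, 10.9 times higher in p53 WT cells (95% exact interval 6.68 to 19.1), with a fitted log2 fold change of -3.11 (SE 0.90, adjusted p = 0.0189). This call was lost when p53 WT replicate 1 (adjusted p = 0.0594), 2 (adjusted p = 0.0538) or 3 (adjusted p = 0.0535) was left out, and the fitted value was -2.35 without p53 KO replicate 1, -4.13 without p53 KO replicate 2 and -4.93 by limma-voom.

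LINC00639 and LINC00520 were low in all libraries. LINC00639 had 0.344, 0.125 and 0.392 CPM in p53 KO libraries, against 1.58, 1.08 and 1.27 CPM in p53 WT libraries, and its log2 fold change was -2.23 (SE 0.60, adjusted p = 0.0133), which did not pass without p53 WT replicate 1 (adjusted p = 0.0806). LINC00520 had 0.991, 0.225 and 0.0490 CPM in p53 KO libraries, against 1.43, 1.41 and 3.37 CPM in p53 WT libraries, and its log2 fold change was -2.15 (SE 0.70, adjusted p = 0.0351). It was one of the least steady calls: the value was -3.71 without p53 KO replicate 1, and the call was lost without p53 KO replicate 2 (adjusted p = 0.0848) or 3 (adjusted p = 0.0503), without p53 WT replicate 2 (adjusted p = 0.0515) or 3 (adjusted p = 0.179), and by limma-voom (adjusted p = 0.0686).

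The other 3 of the 12 largest decreases were between -1.89 and -1.75 on the log2 scale. LINC00565, later named SWINGN after its reported part in the expression of GAS6, a receptor ligand, had 1.91, 1.92 and 0.687 CPM in p53 KO libraries, against 5.05, 5.97 and 4.52 CPM in p53 WT libraries (log2 fold change -1.76, SE 0.34, adjusted p = 0.00154). GAS6 fell by 0.38 on the log2 scale (adjusted p = 0.0397). LINC01137, later named LITATS1 as an inhibitor of TGF-beta signalling, had 2.66, 2.50 and 2.21 CPM in p53 KO libraries, against 9.06, 8.41 and 6.90 CPM in p53 WT libraries (log2 fold change -1.75, SE 0.23, adjusted p = 7.59e-05). LINC00537 had 1.80, 2.97 and 0.883 CPM in p53 KO libraries, against 9.54, 5.77 and 5.59 CPM in p53 WT libraries (log2 fold change -1.89, SE 0.36, adjusted p = 0.00143). The groups did not overlap for any of these 3, which the rule for the 12 largest changes required.

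**Figure D3:**
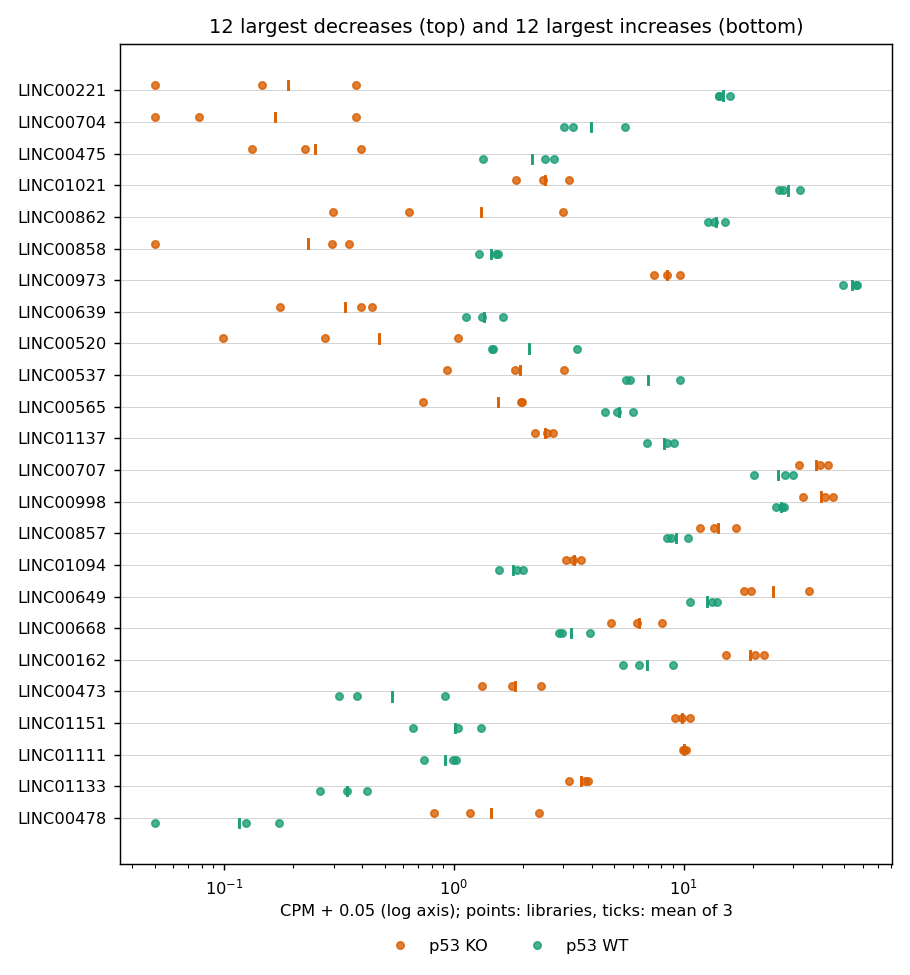
Level of the 12 largest increases and the 12 largest decreases in each library (CPM plus 0.05, log axis), p53 KO above p53 WT in each row, with ticks at the mean of 3 libraries. LINC00221 and LINC00704 lie near the left edge in p53 KO cells and LINC00478 near it in p53 WT cells. No pair of groups overlaps, since only RNAs without overlap were chosen.

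Among the increases, LINC00478 stands out as a microRNA host. It is now named MIR99AHG and its RefSeq gene on chromosome 21 holds the hairpins MIR99A and MIRLET7C. Their main arms are shown to identify the cargo, with the seed (bases 2 to 8), which pairs with targets, in capitals, from RefSeq in build GRCh38.p14. The 2 seeds differ, so the arms belong to different seed families. Mature microRNAs have no poly(A) tail and were not measured in these libraries.
hsa-miR-99a-5p: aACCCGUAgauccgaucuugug
hsa-let-7c-5p: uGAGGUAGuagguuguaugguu
LINC00478 had 2.29, 0.774 and 1.13 CPM in p53 KO libraries, against 0.0752, 0 and 0.123 CPM in p53 WT libraries. These were 220 counts in p53 KO cells and 9 in p53 WT cells, a ratio of 31.6 (95% exact interval 16.3 to 70.0, counting error only), and the fitted log2 fold change was 4.56 (SE 0.92, adjusted p = 0.00204). The call held under every setting that tested it and with each library left out, with values of 3.97 without p53 KO replicate 1 and 3.86 without p53 WT replicate 2.

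LINC01133, LINC01111 and LINC01151 formed a group of increases with close replicates. LINC01133, reported to bind the splicing factor SRSF6, had 3.13, 3.67 and 3.78 CPM in p53 KO libraries, against 0.213, 0.295 and 0.370 CPM in p53 WT libraries (log2 fold change 3.61, SE 0.40, adjusted p = 1.75e-05). LINC01111 had 10.0, 10.2 and 9.86 CPM in p53 KO libraries, against 0.690, 0.972 and 0.945 CPM in p53 WT libraries (log2 fold change 3.52, SE 0.25, adjusted p = 3.49e-07). LINC01151 had 9.12, 10.6 and 9.76 CPM in p53 KO libraries, against 0.990, 1.27 and 0.616 CPM in p53 WT libraries (log2 fold change 3.28, SE 0.28, adjusted p = 1.58e-06). LINC01111 and LINC01151 are the only 2 of the 131 on chromosome 8, and both were higher.

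LINC00162 and LINC00473 followed in size. LINC00162, later named PICSAR, an RNA held down by p38 kinase in skin carcinoma cells, had 20.3, 15.3 and 22.4 CPM in p53 KO libraries, against 8.93, 5.39 and 6.33 CPM in p53 WT libraries (log2 fold change 1.46, SE 0.22, adjusted p = 2.09e-04). LINC00473, known as a target of cAMP and CREB signalling, had 2.35, 1.75 and 1.27 CPM in p53 KO libraries, against 0.865, 0.265 and 0.329 CPM in p53 WT libraries (log2 fold change 1.82, SE 0.54, adjusted p = 0.0222). Its call was lost without p53 KO replicate 1 (adjusted p = 0.0922), p53 WT replicate 2 (adjusted p = 0.0968) or p53 WT replicate 3 (adjusted p = 0.0762), and its value was 2.59 without p53 WT replicate 1.

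LINC00649 had 18.2, 19.6 and 35.1 CPM in p53 KO libraries, against 13.2, 10.6 and 13.9 CPM in p53 WT libraries (log2 fold change 0.93, SE 0.23, adjusted p = 0.00834). One p53 KO library was well above the other 2, and without p53 KO replicate 3 the value was 0.56 (adjusted p = 0.0203). LINC00649 lies on the strand opposite to ATP5O, a subunit of ATP synthase, which was itself higher (log2 fold change 0.70, adjusted p = 2.81e-04). Since the strand setting of the count is not given in the sources used here, reads of the 2 genes may not be separated.

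The remaining increases among the 12 largest were smaller and most were unsteady. LINC00668 had 4.78, 7.97 and 6.23 CPM in p53 KO libraries, against 2.91, 2.81 and 3.86 CPM in p53 WT libraries (log2 fold change 0.97, adjusted p = 0.0137), and was not called without p53 KO replicate 2 (adjusted p = 0.0726), p53 WT replicate 1 (adjusted p = 0.0518) or p53 WT replicate 2 (adjusted p = 0.0691). LINC01094 had 3.54, 3.25 and 3.04 CPM in p53 KO libraries, against 1.94, 1.83 and 1.52 CPM in p53 WT libraries (log2 fold change 0.86, adjusted p = 0.0471). It was not called when any 1 of the 6 libraries was left out, with adjusted p between 0.0619 and 0.137, nor with no filter on low counts (adjusted p = 0.108). LINC00857 had 11.7, 13.5 and 16.9 CPM in p53 KO libraries, against 8.74, 8.38 and 10.4 CPM in p53 WT libraries (log2 fold change 0.59, adjusted p = 0.0320). LINC00857 was not called without p53 KO replicate 3 (adjusted p = 0.112), p53 WT replicate 1 (adjusted p = 0.0984) or p53 WT replicate 2 (adjusted p = 0.135). LINC00707 had 39.2, 42.3 and 31.5 CPM in p53 KO libraries, against 20.1, 29.7 and 27.4 CPM in p53 WT libraries (log2 fold change 0.53, adjusted p = 0.0199). LINC00707 was not called without p53 KO replicate 1 (adjusted p = 0.0620), p53 KO replicate 2 (adjusted p = 0.0735) or p53 WT replicate 1 (adjusted p = 0.0976).

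RefSeq now lists 10 of the 131 as protein coding, 119 as lncRNA and 1 as a pseudogene, and 1 could not be matched. Of those 10, LINC00998 was higher, LINC00094 (BRD3OS, 44.1, 37.0 and 42.9 CPM in p53 KO libraries against 52.2, 53.9 and 49.7 CPM in p53 WT libraries, log2 fold change -0.35, adjusted p = 0.0352) was lower, and 8 did not pass. Among those that did not pass, LINC00610 and LINC00341 were matched by an older name to COMMD9 and SYNE3. These coding genes also have rows of their own (means of 40.7 and 2.31 CPM, against 0.827 CPM for LINC00610 and 1.51 CPM for LINC00341). What the LINC rows count is therefore uncertain. LINC00998 encodes SMIM30, a small membrane protein. Its reading frame, shown because the row is a short mRNA under a noncoding name, has 180 bases and 59 codons before the stop in the GENCODE 29 transcripts, with the start and stop codons in capitals.
SMIM30: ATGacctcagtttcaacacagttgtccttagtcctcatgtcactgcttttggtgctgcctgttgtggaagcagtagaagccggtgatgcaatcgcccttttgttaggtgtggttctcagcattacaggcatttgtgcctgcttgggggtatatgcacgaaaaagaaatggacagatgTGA
LINC00998 had 44.5, 41.3 and 33.1 CPM in p53 KO libraries, against 27.2, 26.8 and 25.2 CPM in p53 WT libraries (log2 fold change 0.56, SE 0.13, adjusted p = 0.00434). The other rows linked to microproteins did not pass. LINC00116, which encodes the mitochondrial microprotein mitoregulin, had 19.0, 17.5 and 26.2 CPM in p53 KO libraries, against 17.9, 17.6 and 18.6 CPM in p53 WT libraries (log2 fold change 0.19, adjusted p = 0.466). LINC00493, which encodes SMIM26, had 16.1, 14.7 and 17.0 CPM in p53 KO libraries, against 18.6, 17.5 and 13.7 CPM in p53 WT libraries (log2 fold change -0.09, adjusted p = 0.745). LINC00467 (log2 fold change -0.43, adjusted p = 0.367) and LINC00086, a row with 2 possible matches in RefSeq (-1.46, adjusted p = 0.0664), lay at 2.26 to 5.32 CPM and at 0.343 to 1.91 CPM over the 6 libraries.

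NORAD, named LINC00657 in the table, had the most reads of the 131. It is a cytoplasmic RNA, named for its activation by DNA damage, that gathers the RNA-binding Pumilio proteins on repeated short elements and so protects genome stability. Its GENCODE 29 transcript of 5339 bases held 15 copies of the Pumilio element TGTANATA on its own strand, or 2.81 per kb. The next highest of the 122 RNAs with a transcript held 10, in 21221 bases of LINC00632. At least 1 stood in 24 of the 122, against 9.5% of 7874 GENCODE lincRNA genes. Elements were counted in the longest transcript of each gene without adjustment for its length, so these shares are not a matched comparison. Elements starting at bases 761 and 1241 of the transcript are shown with 8 bases on each side and the element in capitals. They stand for the repeated unit for which NORAD is known. They are numbered in the order shown, and another element, starting at base 1140, lies between them.
NORAD element 1: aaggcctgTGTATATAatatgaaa
NORAD element 2: tcacatttTGTAAATAcctttttg
NORAD had 201, 185 and 142 CPM in p53 KO libraries, against 215, 249 and 222 CPM in p53 WT libraries. The groups did not overlap, the decrease was small (log2 fold change -0.40, SE 0.12, adjusted p = 0.0186), and it did not pass without p53 WT replicate 2 (-0.34, adjusted p = 0.109).

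The other 4 RNAs with the most reads were LINC00963, LINC00452, LINC00958 and LINC00152. Per kb of exonic length in GENCODE 29, NORAD averaged 32.9 CPM per kb in p53 KO cells and 42.9 CPM per kb in p53 WT cells, the highest per length of these 5. Per length it did not lead all 131: LINC00973 averaged 56.2 CPM per kb in p53 WT cells. In p53 KO cells the others averaged 24.9 (LINC00958), 20.7 (LINC00452), 6.37 (LINC00963) and 2.23 CPM per kb (LINC00152). In p53 WT cells they averaged 29.2 (LINC00958), 35.9 (LINC00452), 9.18 (LINC00963) and 4.35 CPM per kb (LINC00152), so LINC00452 and LINC00958 stood in the opposite order in the 2 groups. LINC00452 had 63.9, 94.1 and 63.9 CPM in p53 KO libraries, against 115, 124 and 146 CPM in p53 WT libraries (log2 fold change -0.82, SE 0.14, adjusted p = 6.92e-04). LINC00963 had 88.7, 87.2 and 76.0 CPM in p53 KO libraries, against 125, 119 and 119 CPM in p53 WT libraries (log2 fold change -0.55, SE 0.10, adjusted p = 7.17e-04). LINC00958 overlapped between the groups, at 68.4, 87.6 and 58.7 CPM in p53 KO libraries against 77.2, 84.7 and 89.3 CPM in p53 WT libraries (log2 fold change -0.25, adjusted p = 0.185). It passed only when p53 KO replicate 2 was left out (-0.41, adjusted p = 0.0228).

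Of the RNAs with a known role or later name that are not described above, 3 were lower in p53 KO cells. LINC00152, named CYTOR for its effect on the cytoskeleton, had 41.7, 38.6 and 38.0 CPM in p53 KO libraries, against 86.9, 71.3 and 72.7 CPM in p53 WT libraries (log2 fold change -0.99, SE 0.11, adjusted p = 2.31e-05). A near-identical copy of this gene exists on the same chromosome, so its reads are uncertain as those of a single gene. LINC00941 had 15.0, 15.2 and 14.7 CPM in p53 KO libraries, against 28.1, 36.2 and 37.0 CPM in p53 WT libraries (log2 fold change -1.19, SE 0.14, adjusted p = 2.71e-05). LINC00511 had 6.43, 3.95 and 6.62 CPM in p53 KO libraries, against 11.7, 12.0 and 12.7 CPM in p53 WT libraries (log2 fold change -1.12, SE 0.22, adjusted p = 0.00159). All 3 pairs of groups were clear of each other. LINC01116 and LINC00987 had the smallest differences among RNAs of at least 5 CPM, together with LINC00493. LINC01116 had 12.9, 13.3 and 17.5 CPM in p53 KO libraries, against 15.6, 13.2 and 15.98 CPM in p53 WT libraries (log2 fold change -0.06, SE 0.17, adjusted p = 0.845). LINC00987 had 8.12, 11.4 and 9.81 CPM in p53 KO libraries, against 7.97, 9.16 and 11.3 CPM in p53 WT libraries (log2 fold change 0.02, SE 0.20, adjusted p = 0.949). LINC00632, whose transcript is the precursor of the circular RNA CDR1as, had 0.978, 1.97 and 1.03 CPM in p53 KO libraries, against 1.19, 0.913 and 1.56 CPM in p53 WT libraries (log2 fold change 0.11, adjusted p = 0.894), and the circular form was not measured.

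**Figure D4:**
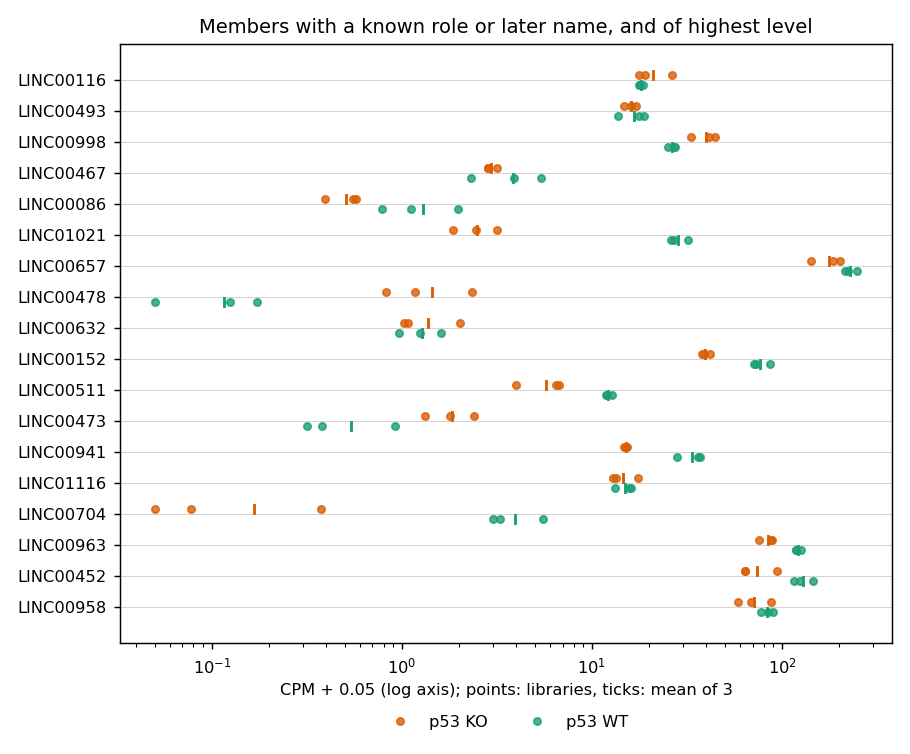
Level in each library (CPM plus 0.05, log axis; p53 KO above p53 WT in each row, ticks at the mean of 3) of the RNAs with a known role or later name and of those with the most reads. LINC01021, LINC00704, LINC00152, LINC00511 and LINC00941 lie to the left in p53 KO cells, LINC00478, LINC00473 and LINC00998 to the right, and LINC00116, LINC00493, LINC00632 and LINC01116 overlap.

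The other 14 calls were 12 decreases and 2 increases. LINC01060, LINC00888 (now SNHG33), LINC00460, LINC00702, LINC00942, LINC00863, LINC00842 and LINC00648 fell by 1.67, 1.57, 1.51, 1.34, 1.29, 1.18, 1.13 and 1.02 on the log2 scale, in this order. LINC00205, LINC00909 and LINC00839 fell by 0.86, 0.81 and 0.63, and the fourth small decrease was that of LINC00094, above. LINC00667 (0.41, adjusted p = 0.0184) and LINC00470 (0.48, adjusted p = 0.0251) rose. Of the set, LINC00839 had the most reads after LINC00094 among the decreases, at 33.1, 29.4 and 32.1 CPM in p53 KO libraries against 51.1, 53.2 and 39.5 CPM in p53 WT libraries. The authors' deposited table has an adjusted p under 0.05 for 38 of the 131 (29.01%, against 22.3% of 22201 genes tested in both). All 38 are among the 44. The called RNAs that did not pass 0.05 in the authors' deposited table were LINC00639, LINC00842, LINC00648, NORAD, LINC00473 and LINC01094.

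A list of 9 other long noncoding RNAs linked to p53 or DNA damage, which have no LINC name of 5 digits, gave 7 rows in the table and 6 that were tested. LINC-PINT, a p53-induced RNA, had 2.67, 2.05 and 1.96 CPM in p53 KO libraries, against 3.57, 3.99 and 6.78 CPM in p53 WT libraries (log2 fold change -1.10, adjusted p = 0.0164). NEAT1, the scaffold of nuclear paraspeckles, fell by 0.79 on the log2 scale (adjusted p = 3.23e-04), TUG1 by 0.68 (adjusted p = 4.86e-04) and PVT1, the neighbour of MYC, by 0.55 (adjusted p = 0.00338). GAS5 did not pass (log2 fold change -0.13, adjusted p = 0.449), and MEG3 had 1 count in all. Thus 5 of 6 were lower, with 14.4% of all genes tested lower.

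Since runs of neighbouring genes can differ together between cell populations, each RNA was set beside its neighbours. The local median is the median log2 fold change of the 50 nearest protein-coding genes of at least 2 CPM, in RefSeq gene order, and it could be had for 130 RNAs. It ran between -0.995 and 0.594, and across the 130 RNAs, which are not independent since neighbours share genes and all share the same libraries, Pearson's r with the RNA's own log2 fold change was 0.32 and Spearman's rho 0.30. Of 18 RNAs with a local median below -0.4, 12 were lower and 1, LINC00857, was higher. Of 7 with a local median above 0.4, 3 were higher and the others did not pass. These 3, LINC00667, LINC00470 and LINC00668, share a local median of 0.47 on chromosome 18 and are not separate observations. Among all genes tested 14.4% were lower and 12.1% higher. The shares over all genes in such neighbourhoods were not computed, so the counts are not read as particular to these RNAs. With the local median taken off, 12 RNAs were higher and 24 lower (9.41% and 10.3% of all genes tested), 10 and 22 of them among those called before.

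**Figure D5:**
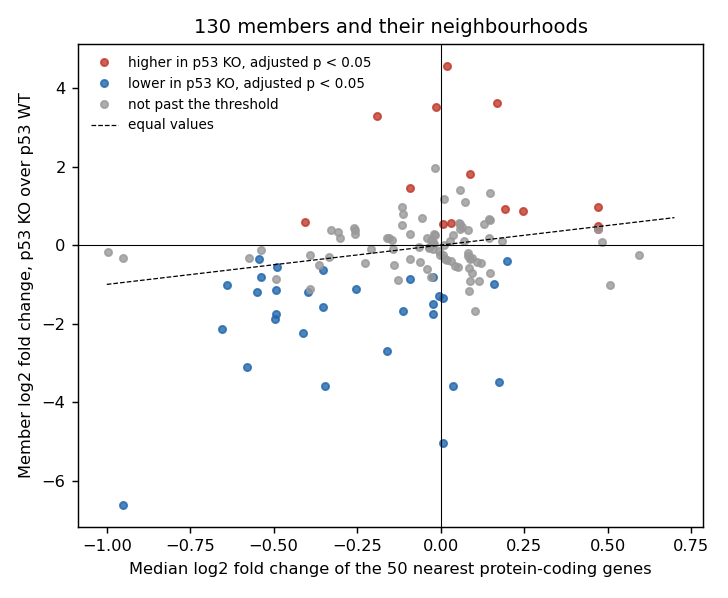
Log2 fold change of 130 LINC-named RNAs, p53 KO over p53 WT (vertical axis), against the median log2 fold change of the 50 nearest protein-coding genes (horizontal axis); the dashed line marks equal values. LINC00704, LINC01021 and LINC00478 lie far from the line with a local median near 0, and LINC00221 lies far below it with a local median of -0.95.

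The calls of PURPL (local median 0.038), MANCR (0.0065), LINC00862 (0.18), LINC00973 (-0.16), LINC00478 (0.02) and LINC01133 stood with their neighbourhood taken off. Those of LINC00858 (-2.54, adjusted p = 0.0603), LINC00520 (-1.49, adjusted p = 0.159), LINC00863 (-0.63, adjusted p = 0.112), LINC00648 (-0.38, adjusted p = 0.496), LINC00909 (-0.27, adjusted p = 0.338) and LINC00839 (-0.28, adjusted p = 0.177) did not. LINC00963 was left at -0.06 (adjusted p = 0.745, local median -0.49), LINC00094 at 0.19 (adjusted p = 0.287, local median -0.54) and LINC01094 at 0.62 (adjusted p = 0.180). LINC00941 kept its call at -0.79 (adjusted p = 0.00102). LINC00667, LINC00470 and LINC00668, all on chromosome 18 with a local median of 0.47, were left at -0.06 (adjusted p = 0.781), 0.01 (adjusted p = 0.974) and 0.50 (adjusted p = 0.218). LINC00857 moved the other way, to 1.00 (adjusted p = 0.00193). LINC00920 and LINC01128 were newly called lower, and LINC01029 and LINC00601 newly higher.

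The nearest protein-coding gene was taken among those averaging at least 1 CPM, so that less expressed coding genes may lie closer. Of the 130 nearest genes 36.9% had a call of their own, 14 higher and 34 lower, near the share of all 12903 such genes (36.7%, 16.9% higher and 19.8% lower). Of the 30 lower RNAs, 16 had a nearest coding gene that was also lower and 1, LINC00862 next to ZNF281, one that was higher. Of the 14 higher RNAs, 4 had a nearest coding gene that was higher and 10 one that did not pass, and of the 86 that did not pass, 18 had one that was lower and 9 one that was higher. Across the 130 pairs, Pearson's r was 0.50 and Spearman's rho 0.51, as a description. In these pairs 124 coding genes take part, and both values come from the same libraries. Some nearest genes overlap the RNA's own gene, such as AGAP6 with LINC00843. COMMD9 and SYNE3, the nearest to LINC00610 and LINC00341, are the genes to which these rows were matched by an older name. Those pairs are therefore not of separate genes. Among genes of that level, PURPL lies between the cadherin genes CDH10 (log2 fold change -5.55, adjusted p = 7.70e-05) and CDH6 (-5.66, adjusted p = 7.16e-05), fitted values of genes with means of 1.03 CPM and 2.11 CPM over the 6 libraries. LINC00973 lies between DCBLD2 (-1.45, adjusted p = 4.40e-07) and the collagen gene COL8A1 (-1.84, adjusted p = 5.05e-07).

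MANCR and LINC00702 share the interval between the same coding genes of at least 1 CPM, KLF6, a zinc-finger factor (-0.16, adjusted p = 0.334) and AKR1C1, an aldo-keto reductase (-4.22, adjusted p = 0.00154). The value of AKR1C1 is a fitted one for a gene with a mean of 1.07 CPM over the 6 libraries. LINC00702 had 4.41, 4.99 and 3.33 CPM in p53 KO libraries, against 12.0, 10.4 and 9.49 CPM in p53 WT libraries, so both RNAs of this interval were lower. By the same measure, LINC00475 lies between SPTLC1, a subunit of serine palmitoyltransferase (-0.88, adjusted p = 7.97e-05), and IARS, the isoleucyl-tRNA synthetase (-0.76, adjusted p = 3.55e-05). LINC00565 has RASA3, a Ras inhibitor, beside it (-1.38, adjusted p = 1.21e-05), and LINC01137 has ZC3H12A, an mRNA-cutting enzyme (-1.03, adjusted p = 9.15e-04). Among the increases, LINC01133 lies next to IGSF9 (0.81, adjusted p = 0.00364) and LINC01094 next to ANXA3 (1.52, adjusted p = 8.51e-07). LINC00478 lies nearest to USP25 (-0.26, adjusted p = 0.110), which did not pass, and has CXADR, a virus and adhesion receptor, on its other side (1.03, adjusted p = 7.45e-05).

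At the minimum itself, LINC01003 (mean 0.504 CPM, log2 fold change -0.72, SE 0.81) and LINC00621 (mean 0.508 CPM, 1.41, SE 0.83) were just inside, and LINC01160 (0.474 CPM, 0.13, SE 0.75) and LINC00552 (0.453 CPM, 0.19, SE 0.91) just outside. With SEs of 0.75 to 0.91 on the log2 scale, small differences at this level were not detectable at this depth.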

How the data were processed

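The authors deposited raw counts per gene symbol for 6 libraries of stranded, poly(A)-selected RNA, each in its own column. The submitters' processing notes name the build GRCh37 (hg19) and the tools DESeq2 1.3.6, HISAT2 2.1.0 and fastp 0.21.0. How reads were counted (tool, annotation, strand) is not given in the sources used here, which leaves overlapping, antisense and near-identical genes uncertain. The comparison table deposited by the authors has per gene a mean signal (normalised counts), a log2 fold change, a test score, a standard error and a p-value. Its log2 fold change was taken as p53 WT divided by p53 KO, since its sign was opposite to that of the score in all 35987 rows and CDKN1A was positive.

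Counts were tested with edgeR 4.0.16 (quasi-likelihood F-test, TMM factors 0.979 to 1.02, filterByExpr, 22352 genes, Benjamini-Hochberg adjustment) in R 4.3.3 with limma 3.58.1. CPM values are not TMM-scaled, and the SE is the log2 fold change's size divided by the square root of F. Groups came from the sample titles. Pearson's r of log2 CPM (prior count 2) across genes lay between 0.954 and 0.979 for pairs of 1 group and between 0.924 and 0.946 for pairs of different groups, and replicates were not copies (lowest chi-square per degree of freedom 16.7, over genes with at least 20 counts). Of the 131 RNAs, 94 matched RefSeq by symbol and 36 by an older name, and 122 matched GENCODE 29. GENCODE places 21 over a coding gene, 8 of them on the same strand. Gene order, promoters and microRNAs are RefSeq's in GRCh38.p14, another build than the authors', so gene positions are not printed. The fit and the local median were tested on simulated counts.

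Named were the 12 largest called increases and decreases with groups that do not overlap, the 15 RNAs of a list of 23 with known roles that reached the minimum, the 5 with the most reads, 2 on each side of the minimum, called RNAs with the p53 cistrome mark, and the 3 of at least 5 CPM with the smallest change. Other calls are named by size only, and their neighbours after their values were seen. Some genes that these lists and checks call for are not reported here. The RNAs, lists and tests were chosen with earlier results of these data known. Alternatives were other normalizations, filters, minimums and thresholds, DESeq2 1.42.0, limma-voom, the replicate block, each library left out, and the local median taken off.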

Additional observations from a re-analysis of the deposited data

How the results depend on the processing

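The count of higher RNAs, 14, ran between 12 and 19 over the other normalizations, filters on low counts, tools, the lower and the higher minimum and the local median, was 11 when 0.5 CPM was required in both groups, and fell to 7 at an adjusted p under 0.01, where fewer RNAs can pass by construction. Leaving out 1 library gave 8 to 12 higher and 25 to 29 lower RNAs, the 8 without p53 WT replicate 2, for which the cause was not tested. The count of lower RNAs, 30, ran between 24 and 31 over the remaining alternatives, with 24 at an adjusted p under 0.01, with the local median off and with 0.5 CPM in both groups. No RNA named by rule reversed a called direction. With the replicate number as a block, 13 RNAs were higher and 29 lower, and 5159 of all genes were called in place of 5924. Among RNAs named by rule, LINC01094 lost its call with the block (0.87, adjusted p = 0.0767). Same-numbered libraries did not deviate together (r of deviations 0.0171, 0.0343 and -0.0291), so the numbers are not taken as pairs, and not every library was best matched by its own number. Depth limits the low RNAs most: 103 of the 131 reached 1 CPM in 3 libraries, and 3 counts came to 0.147 CPM in the shallowest library.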

Other observations

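Of the 483 LINC-named rows under 0.5 CPM, 197 had no count in any library and 59 passed the filter on low counts. One of these 59 (1.69%, against 4.29% of the 3312 genes tested under 0.5 CPM) differed by edgeR's test with Benjamini-Hochberg adjustment. It was LINC00705, with 0.0551, 0 and 0 CPM in p53 KO libraries, against 0.815, 0.368 and 0.698 CPM in p53 WT libraries (fitted log2 fold change -4.51, adjusted p = 0.0110). It was named after its values were seen.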
